A study of Mus musculus with 6 samples.

Results

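The genes described here encode the proteasome and the enzymes that hand ubiquitin on towards it, in the deep cerebellar nuclei of mice trained in eyeblink conditioning. Members were all probe sets whose platform annotation gave exactly 1 gene symbol, starting with Psma, Psmb, Psmc, Psmd, Psme or Ube2. They numbered 151 probe sets of 77 genes, out of 36701 probe sets without controls and 15964 genes with a probe set of a single symbol. The proteasome prefixes held 74 probe sets of 44 genes and Ube2 held 77 probe sets of 33 genes. The rule for members used symbols and no measured value, but it was set with earlier results of these data known. Some are therefore no subunits or conjugating enzymes: Psmc3ip, a recombination factor, Psme3ip1, a partner of Psme3, Ube2d-ps, a pseudogene, and Ube2cbp. Psmd5, Psmd9 and Psmd10, chaperones of cap assembly, are no subunits of the finished cap either.

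Male C57BL/6 mice aged 11 to 18 weeks carried electrodes in the left eyelid, recovered for 3 days and were then trained over 7 days, with a tone lasting 352 ms and a shock beside the eye lasting 100 ms. In the paired group the shock began 252 ms after the tone and both ended together, which is the paradigm that conditions the eyeblink. In the unpaired group, the control that shared surgery and stimuli, tone and shock were kept apart in a pseudorandom order. Tissue centred on the anterior interpositus nucleus, the output nucleus that the conditioned eyeblink depends on, was taken with syringe needles within 10 to 30 min, and 10 to 15 nuclei of the electrode side were pooled. RNA of each group, as cRNA labelled with biotin, was put on 3 array designs, A, B and C, which carry different probe sets. This gave 6 arrays with 1 array per group and design, so no difference has a replicate check and no p-value is given.

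Ubiquitin is a small protein that cells attach to other proteins, most often to mark them for destruction. An activating enzyme (E1) charges ubiquitin, a conjugating enzyme (E2, most of them named Ube2) receives it, and a ligase (E3) directs it to the target. The proteasome then cuts the marked protein. Alpha subunits (Psma) form the outer rings of its barrel-shaped core and gate it. Beta subunits (Psmb) form the inner rings and carry the cutting sites. The regulatory cap holds a ring of ATPases (Psmc) that unfold the protein. Further cap subunits (most Psmd) include some that bind ubiquitin or remove it. Psme genes encode other activators of the core. In neurons this system takes part in the turnover of synaptic proteins, and proteasome inhibitors are widely used to study memory.

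Proteasome genes are known to share promoter elements, among them the antioxidant response element bound by Nfe2l1 and Nfe2l2 and the CCAAT box. Promoter windows of RefSeq (assembly GRCm38.p6, 250 bases before to 50 after a start) were found for 64 of the 77 member genes, 76 windows in all. The antioxidant response element was searched as TGACNNNGC on both strands. It was in 15.0% of the 40 proteasome windows and 19.4% of the 36 Ube2 windows, beside 12.4% of all 32851 windows. The matches of the proteasome genes that lie wholly before the start, and those of 2 E2 genes picked to show a match on each strand, are shown because they let the shared core be compared between subunits of the barrel, the cap and the enzymes. Capitals mark the match, read on the gene's strand, and bases after the start are left out.
Psmb5, chr14:54618014-54618062, minus strand: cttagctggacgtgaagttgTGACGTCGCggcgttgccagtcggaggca
Psmb6, chr11:70525328-70525356, plus strand: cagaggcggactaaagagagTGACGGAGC
Psmc6, chr14:45329577-45329625, plus strand: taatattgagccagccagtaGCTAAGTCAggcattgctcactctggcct
Psmd9, chr5:123228139-123228187, plus strand: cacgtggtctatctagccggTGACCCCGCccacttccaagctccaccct
Psmd12, chr11:107479278-107479309, plus strand: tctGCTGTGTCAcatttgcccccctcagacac
Ube2e2, chr14:18893414-18893453, minus strand: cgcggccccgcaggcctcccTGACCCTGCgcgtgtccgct
Ube2v1, chr2:167632198-167632246, minus strand: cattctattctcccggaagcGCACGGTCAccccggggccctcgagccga
The match ran with the gene in Psmb5, Psmb6, Psmd9 and Ube2e2 and on the opposite strand in Psmc6, Psmd12 and Ube2v1. Among proteasome genes with a level in the data, the 6 with a match had a median log2 ratio, paired over unpaired, of -0.06, and 2 of them were above 0. The 27 without a match had a median of 0.0067, and 14 were above 0. Ube2 genes were the other way round, with medians of -0.02 with a match (6 genes) and -0.06 without (14 genes). Over all measured genes with a window the medians were -0.0096 with a match and -0.0056 without.

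The CCAAT box (CCAAT, both strands) was in 40.0% of proteasome windows and 19.4% of Ube2 windows, beside 37.4% of all windows. It is shown for genes of 4 different parts of the system whose values are described later.
Psma2, chr13:14613168-14613212, plus strand: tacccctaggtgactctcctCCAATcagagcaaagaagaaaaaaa
Psmb3, chr11:97703371-97703415, plus strand: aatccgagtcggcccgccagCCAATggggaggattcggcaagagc
Psmd4, chr3:95042685-95042729, minus strand: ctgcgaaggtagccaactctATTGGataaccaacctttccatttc
Ube2e1, chr14:18331958-18332002, minus strand: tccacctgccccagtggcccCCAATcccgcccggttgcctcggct
Proteasome genes with a CCAAT box had a median log2 ratio of 0.02 (14 genes, 8 above 0), and those without it -0.03 (19 genes, 8 above 0). Ube2 genes had -0.28 with it (2 genes) and -0.01 without (18 genes). Over all measured genes with a window the medians were -0.0031 and -0.0094. The interferon-stimulated response element, searched on both strands as GAAA, any 2 bases and GAAA, was in 10.0% of proteasome windows, those of Psmb3, Psmd4, Psmd9 and Psme1, in none of the Ube2 windows and in 3.44% of all windows. The 4 proteasome genes with it had a median log2 ratio of 0.07, and 3 were above 0. The 29 without it had a median of -0.03, and 13 were above 0. Over all measured genes with a window the medians were -0.0099 with it and -0.0061 without. All these shares describe letters in a window and not sites of binding.

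Proteasome probe sets were bright on design A. Signal rank is the percentile of a probe set's mean log2 signal among all probe sets of its design, and it depends on how well the probes bind as well as on the amount of transcript. The median rank was 81.0 for proteasome probe sets and 73.7 for Ube2 probe sets, beside 53.0 for all probe sets with a single symbol. Above the 90th percentile lay 28 of the 74 proteasome probe sets (37.8%) and 15 of the 77 Ube2 probe sets (19.5%), beside 11.0% of all with a single symbol. The proteasome share came from design A, where 26 of 53 (49.1%) lay above the 90th percentile, while on design C 1 of 16 did (6.25%). Ube2 probe sets were highest on design B, with 8 of 22 (36.4%) above the 90th percentile, beside 11.1% of all there. On design A 3 of 29 (10.3%) lay above it, close to the 10.1% of all single-symbol probe sets of that design.

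By symbol prefix the median rank was 86.3 for Psma, 82.1 for Psmb and 81.4 for Psmc, which includes Psmc3ip (rank 24.9). It was 82.0 for Psmd, with the assembly chaperones, and 62.5 for Psme. No Psme probe set lay above the 90th percentile. Ube2ql1, an E2-like gene, had the highest rank of all members, 99.4 on design B. The top subunits of the barrel were Psmb5 (98.1), Psma2 (98.0), Psmb3 (97.4) and Psma6 (96.9). The rank of Psmb5 came from a probe set whose suffix marks a shared sequence family. The top of the cap was Psmd4, a ubiquitin receptor (97.9). Ube2d1 reached 97.9 and Ube2v1, a partner of Ube2n without an active-site cysteine, 97.2. Different probe sets of one gene could stand far apart: Psmb4 ranged from 2.74 to 95.9 over 3 probe sets and Psmb3 from 4.91 to 97.4 over a pair. Over the 44 member genes with several probe sets the median span was 31.9 percentile points, and 13 genes spanned more than 50 points. The order of genes by rank is therefore an order of probe sets.

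**Figure D1:**
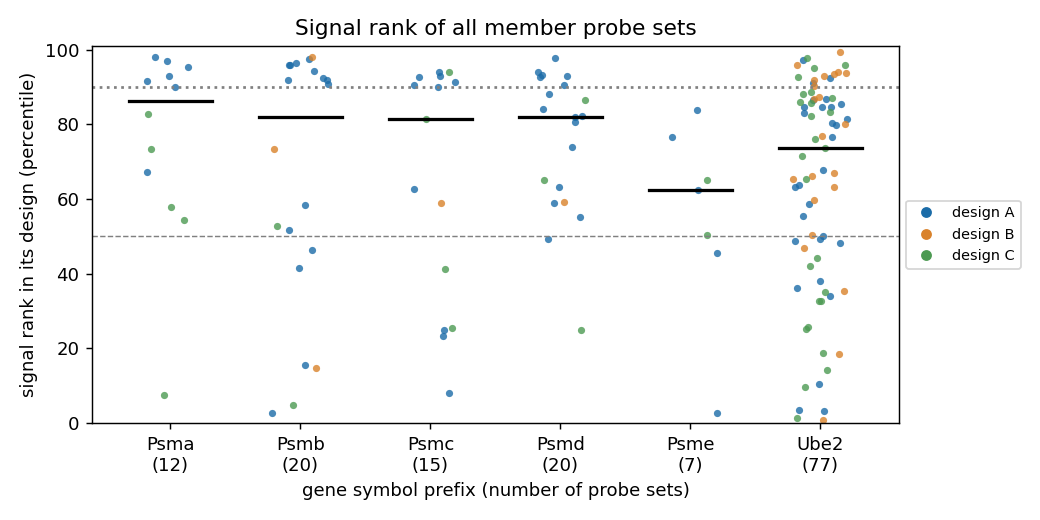
Signal rank within the design (percentile, vertical axis) of all 151 member probe sets, grouped by symbol prefix and coloured by array design. Black bars are medians, the dashed line is the 50th and the dotted line the 90th percentile; 28 proteasome and 15 Ube2 probe sets sit above the dotted line, and no Psme probe set does.

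Log2 signals are given from here on with the unpaired pool first and the paired pool second. Differences were taken for probe sets whose mean signal reached the median of their design. This kept 111 of the 151 member probe sets and 64 of the 77 genes. Of the 40 probe sets left out, 17 were at the floor in both pools. The genes with no kept probe set were Psmb9, Psmc4, Psmd2, Psmc3ip, Ube2c, Ube2cbp, Ube2d2b, Ube2e3, Ube2f, Ube2l6, Ube2t, Ube2u and Ube2v2. The largest differences among the probe sets left out were upwards. Psmd2, a large scaffold of the cap, lay just under the filter on design A (rank 49.4), with 4.55 and 5.01 and a log2 ratio of 0.45. A probe set of Ube2e1 on design C had a log2 ratio of 0.31, and a probe set of Ube2o on design A had 0.28. On the inner side of the filter on that design, Ube2k (rank 50.2) had 4.82 and 4.84.

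No member probe set was 1.5-fold apart between the pools, and no member gene. Past that size, in either direction, lay 0.681% of all 18351 kept probe sets, and 0.388% of all measured genes, so fewer than 1 of 111 would lie there at the background share. At a smaller size, a log2 ratio of at least 0.322 (1.5-fold is 0.585) in either direction, 7 of the 111 were counted, 3 higher and 4 lower in the paired pool, beside 9.75% of all kept probe sets (4.68% higher, 5.07% lower). By design these were 4 of 63 on A, 1 of 22 on B and 2 of 26 on C, beside 9.27%, 10.9% and 9.03% of all. All 4 lower ones were on design A and all 3 higher ones on B and C, so the split by direction was also a split by array design. Without scaling the split was 2 higher and 5 lower, and with loess scaling 2 and 4. The members' share was thus not above the background. Their log2 ratios had an SD of 0.17 beside 0.19 for all kept probe sets, and 51 of 111 were above 0, beside 50% of all. As genes, each taken as the mean of its kept probe sets, 31 of 64 were above 0, beside 49% of all 10579 measured genes, with a median of -0.01 beside -0.0039.

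**Figure D2:**
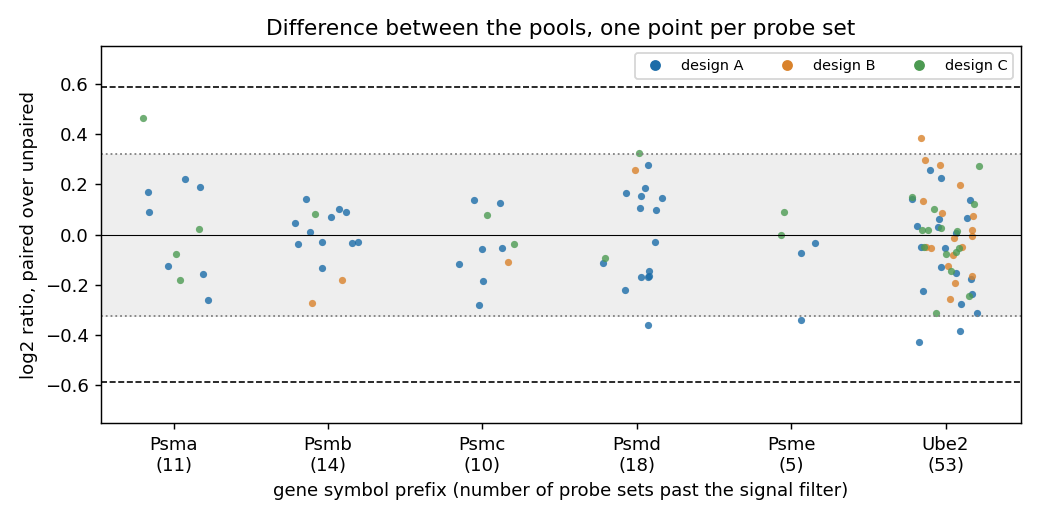
Log2 ratio, paired over unpaired, of the 111 member probe sets past the signal filter, by symbol prefix and coloured by design. The grey band holds the central 90% of all kept probe sets (-0.32 to 0.31), dotted lines mark a log2 ratio of 0.322 and dashed lines 1.5-fold; no point reaches a dashed line and 7 lie past a dotted one.

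The alpha subunits split evenly, 4 of 8 genes higher and 4 lower, with a median log2 ratio of 0.02. Psma4 was the member gene with the largest difference upwards. It had 7.54 and 7.76 on design A and 5.10 and 5.57 on design C, the latter 1.38-fold on a probe set whose suffix marks a shared sequence family. On both designs the paired array was thus the higher one, and the gene mean was 0.34. Without suffixed probe sets the gene value was 0.22, and Psmd5 (0.27) was then above it. Psma6 went the other way on its single probe set, from 9.21 to 8.94, a log2 ratio of -0.26. Psma2 had 9.44 and 9.61, a log2 ratio of 0.17. The alpha subunits stand side by side in each outer ring, and their gene log2 ratios ranged from -0.26 to 0.34. Psma8, the testis counterpart of Psma7, had 3.53 and 3.35 on a suffixed probe set near the middle of the signal range.

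Of the beta subunits 6 of 10 genes were higher and 4 lower, with a median of 0.02 and the narrowest spread among the proteasome groups (SD 0.12 over genes). The 3 cutting subunits of the standard barrel lay close to 0. Psmb5, the chymotrypsin-like subunit, had log2 signals of 7.82 and 7.69 and of 4.95 and 4.91 on design A, and of 8.25 and 8.07 on design B. All 3 probe sets were lower in the paired pool, by 0.13, 0.03 and 0.18 on the log2 scale. The first and the last of these values came from suffixed probe sets, and the probe set without a suffix gave the 0.03. Psmb6, the caspase-like subunit, had 8.71 and 8.72. Psmb7, the trypsin-like subunit, had 7.95 and 8.05, a log2 ratio of 0.10. Each of these differences is smaller than 0.20, the SD of a single log2 ratio estimated from probe sets of the same gene over all genes. Over the proteasome genes alone that SD was 0.10. The Psmb5 differences of 0.13 and 0.18 were larger than this, and that of Psmb7 was about equal to it.

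Immune cells and cells exposed to interferon exchange these 3 subunits for Psmb8, Psmb9 and Psmb10. Psmb10, the counterpart of Psmb7, was bright (rank 91.8), with log2 signals of 7.94 and 7.91. Psmb8, the counterpart of Psmb5, had 5.34 and 5.32 on design A and 3.12 and 3.20 on design C, near the middle of each design. Psmb9, the counterpart of Psmb6, lay under the signal filter (rank 41.6) with 4.19 and 4.36. The pools were thus within 0.2 of each other for all 3 immune subunits. Psmb11, the thymus form, had 5.68 and 5.41 on design B and was the beta gene with the largest difference, -0.27. Psmb3, a structural subunit, had 9.23 and 9.27.

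The ATPases of the cap had a median of -0.05, 2 of the 5 genes being higher. Psmc6 was lower on both designs that carried it, 8.48 against 8.20 on A and 4.83 against 4.72 on B, and had the largest gene difference of the group, -0.20. Psmc1 had 8.07 and 8.21, a log2 ratio of 0.14. Psmc3 was read by 5 kept probe sets, with log2 ratios between -0.19 and 0.08 and a mean of -0.05. These ATPases stand side by side in 1 ring, and the sign of their differences was not shared.

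The Psmd genes, cap subunits apart from the assembly chaperones Psmd5, Psmd9 and Psmd10, had a median of 0.04. Of them 7 of 13 were higher and 6 lower. All of the chaperones were among the higher genes, at 0.27, 0.10 and 0.04, and Psmd10 was itself the median. Psmd5, a chaperone of cap assembly, was the higher one after paired training on both designs with a kept probe set, 7.97 against 8.25 on A and 4.65 against 4.91 on B. Its log2 ratios, 0.28 and 0.26, were close to each other. Psmd4 was also higher on both, 9.38 against 9.53 on A and 3.72 against 4.04 on C. Psmd12, a lid subunit, was lower on its single, suffixed probe set, 6.51 against 6.15, or 1.29-fold. Psmd1, the other large scaffold beside Psmd2 of the cap, had 8.39 and 8.27. Psmd11, a lid subunit, was lower on all 3 of its probe sets of design A, by 0.03, 0.16 and 0.17. Psmd14, the lid enzyme that cuts ubiquitin off the substrate, had 6.98 and 6.83.

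Of the activators, Psme3, the nuclear form, was lower in the paired pool on its single probe set, 5.77 against 5.43, or 1.27-fold. Psme1, a subunit of the interferon-induced form, had 6.54 and 6.50. Psme4, the large single-chain activator, had 3.88 in both pools on design C, and a probe set of design A under the filter had 4.59 and 4.50. Psme2 had no probe set with a single symbol. Psme3ip1, a partner of Psme3 and no proteasome subunit, had -0.07 on design A and 0.09 on design C.

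The Ube2 genes had a median log2 ratio of -0.03, with 11 of 24 higher and 13 lower. The pseudogene Ube2d-ps (0.02) was among the higher ones. The largest differences were downwards. Ube2e1 was lower on its single probe set, 5.57 against 5.14, or 1.34-fold. That probe set carries the suffix of a sequence family, and a second one on design C, under the filter, went the other way with 2.34 and 2.66. Ube2a, a partner of ligases that act on histones and in DNA repair, was lower on its kept probe set, 5.84 against 5.46, or 1.30-fold. Ube2b, its close relative, had log2 ratios of 0.04 on design A and -0.26 and -0.05 on design B.

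Ube2d genes encode E2 enzymes that work with a wide range of ligases, and their coding sequences are nearly alike, so that probe sets may read more than 1 of them. Ube2d1 was lower in the paired pool, 7.93 against 7.61, on a suffixed probe set of design C. Ube2d3 was lower on all 3 of its probe sets, by 0.31 and 0.05 on design A and 0.05 on design B. Ube2d2a had 7.22 and 7.04 on its probe set without a suffix and log2 ratios of 0.14 and -0.07 on its suffixed ones. Ube2r2, an E2 of the cullin ligases, was lower on both designs that carried it, 8.15 against 7.87 on A and 4.02 against 3.78 on C. Ube2g1, an E2 of the endoplasmic reticulum pathway, was lower on A and B, by 0.24 and 0.13.

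Ube2s, which lengthens ubiquitin chains for the anaphase-promoting complex, was the E2 gene with the largest difference upwards, 7.06 against 7.20 on design A and 5.54 against 5.81 on design C, log2 ratios of 0.14 and 0.27. Ube2n and its partner Ube2v1, which build chains that signal rather than destroy, had no common direction. Ube2n had 7.23 and 7.01 on A, 7.53 and 7.52 on B and 5.35 and 5.47 on C. Ube2v1 had 9.11 and 9.17 on A and 7.31 and 7.12 on B. Ube2v2 lay under the filter on design A with 4.82 and 4.72. Ube2ql1, the brightest member, had log2 ratios from -0.05 to 0.15 over 4 probe sets. Ube2m, the E2 enzyme of NEDD8, was not analysed here.

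The only repeat measure in the series is a second probe set of the same gene. Among 31 member genes read by several probe sets past the filter, all probe sets shared 1 direction in 15 (48.4%), beside 42.1% of all 3437 such genes. The SD within a gene was 0.14 over the member genes (0.10 in the proteasome genes, 0.15 in Ube2) and 0.20 over all genes. Among probe sets ranked 75 or higher it was 0.15 over 17 member genes and 0.19 over 1331 genes. The widest ranges were those of Ube2k, from -0.15 to 0.38 over 5 probe sets, Ube2q1, -0.16 and 0.29 on the same design, and Ube2z, -0.13 and 0.23 on the same design. Ube2k thus had 1 probe set past a log2 ratio of 0.322 (0.38, on design B) and 4 within it.

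Probe sets on different designs can be set side by side for 25 member genes, taking the first such pair of each in alphabetical order. Their log2 ratios had a Pearson r of 0.56, against -0.01 over 2196 such pairs of all genes. For the 10 proteasome pairs r was 0.75 and for the 15 Ube2 pairs 0.34. Without the 2 pairs whose first probe set lay farthest from the median of the first probe sets, r over the members was 0.43. The same sign was seen in 13 of the 25 pairs, beside 50.6% of all pairs. On the same design, r over 15 member pairs was 0.07, beside 0.09 over 2015 pairs. These are descriptions across genes, which are not replicates, and the probe sets of a gene share the pools of tissue.

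**Figure D3:**
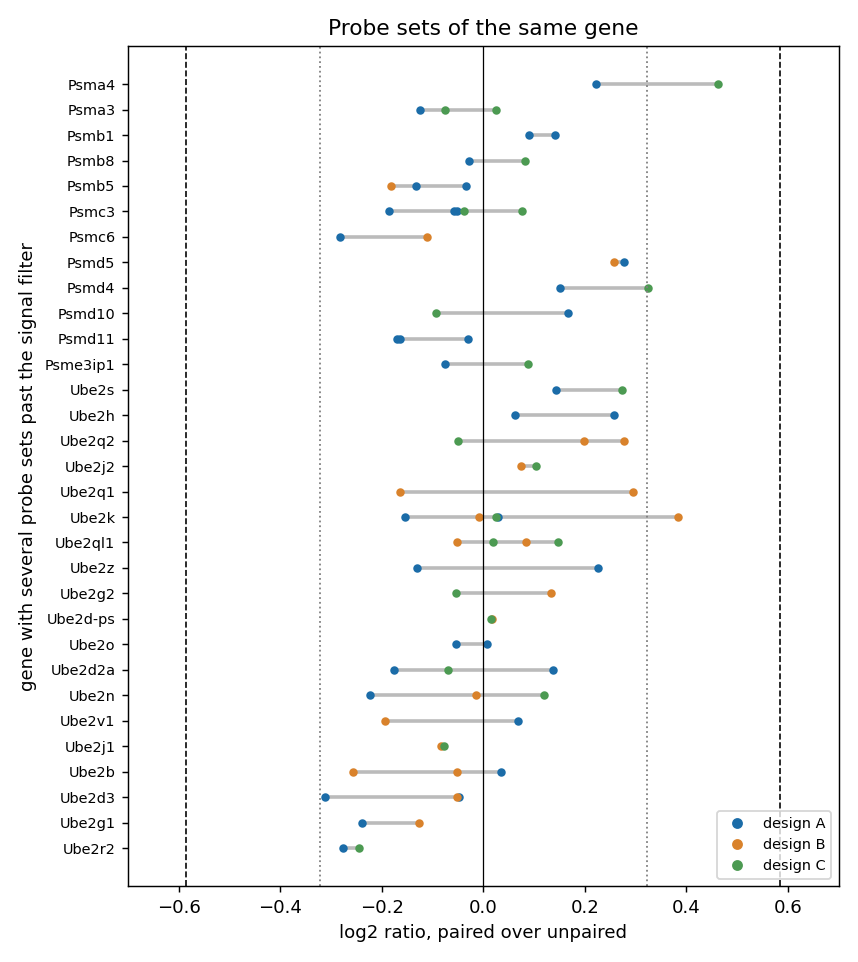
Log2 ratio, paired over unpaired, of every kept probe set (points, coloured by design) for the 31 member genes with several, one gene per line, with a grey line over its range. Dotted lines mark a log2 ratio of 0.322 in either direction and dashed lines 1.5-fold; Psma4, Psmd4, Psmd5 and Ube2s lie wholly above 0, Ube2r2, Ube2g1, Psmc6 and Psmb5 wholly below, and Ube2k and Ube2q1 span both sides.

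Other genes of the pathway were placed beside the members. Past a log2 ratio of 0.322 as a gene mean lay 1 member gene upwards (Psma4) and 4 downwards (Ube2e1, Ube2a, Psmd12 and Psme3), beside 3.01% and 3.81% of all measured genes (6.82% in both directions). Without the signal filter Ube2e1 (-0.06) and Ube2a (-0.23) no longer passed that size, and Psmd2, with 0.45 on its only probe set, did. Without suffixed probe sets Psma4 (0.22) no longer passed it, and Ube2e1 and Psmd12 had no kept probe set left. Of 6 measured E1 enzymes none passed that size, and the median was 0.02. The largest were Uba7, the E1 of the interferon-induced modifier Isg15, at 0.17 (5.26 and 5.43) and Atg7, the E1 of autophagy, at 0.11.

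E3 ligases and cullin scaffolds had a median of -0.05 over 32 genes, with 13 higher and 19 lower. Past a log2 ratio of 0.322 were Cul4b, a cullin scaffold, at -0.55 on its kept probe set (6.36 against 5.80) and Rnf34 at 0.46. The Rnf34 mean joined 0.03 on design A and 0.89 on design B. Deubiquitinases had a median of -0.01 over 19 genes. Usp14, which trims chains on the cap of the proteasome, was lower, 6.01 against 5.60, a log2 ratio of -0.41, and Otub1 had 7.07 and 6.78.

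Assembly, inhibitor and shuttle factors of the proteasome had a median of 0.02 over 16 genes. Ubqln2, a shuttle factor, had a mean of -0.34 that joined -0.78 on design A and 0.10 on design C. Txnl1, a thioredoxin of the cap, had 6.25 and 6.57, a log2 ratio of 0.321, just under that size. Without the signal filter, which lets dimmer probe sets in, the gene means were -0.27 for Cul4b, -0.20 for Usp14, -0.09 for Ubqln2 and 0.16 for Txnl1. The other E2 enzymes outside the Ube2 names had a median of -0.14 over 4 genes, with Aktip and Ufc1 both at -0.22. Ubiquitin-like proteins had a median of -0.06 over 8 genes, with Gabarap at -0.26 and Sumo3 at -0.24. The 4 ubiquitin genes themselves were not analysed here.

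**Figure D4:**
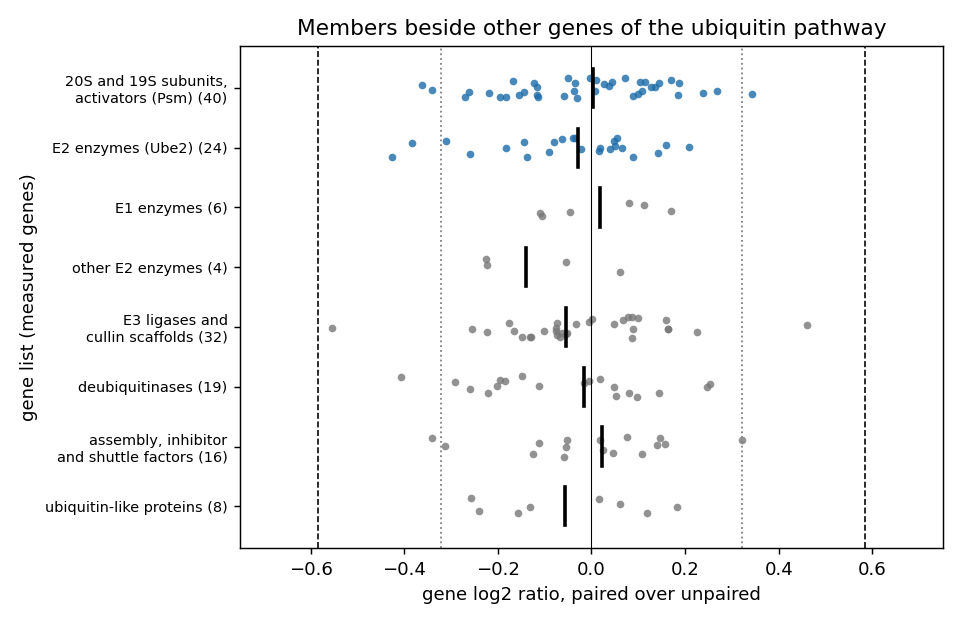
Gene log2 ratio, paired over unpaired, of the members (blue) and of other genes of the ubiquitin pathway (grey), one point per gene, with black bars at the medians. Dotted lines mark a log2 ratio of 0.322 in either direction and dashed lines 1.5-fold; all medians lie between -0.14 and 0.02, and no gene reaches 1.5-fold.

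The dissected tissue holds more than nuclear neurons. Of the defining markers of deep nuclear projection neurons, Slc17a6, Nefm, Nefl and Vamp1 ranked between 99.8 and 100 on their brightest probe sets, while Meis2, Lhx9 and Tbr1 lay under the filter. The other measured ones ranked from 83.5 (Irx3) to 98.3 (Kcnc1). Projection neuron markers were measured in 8 of 12 listed genes with mean log2 signals of 7.91 and 7.86. Some markers of other cells ranked as high, such as Pvalb of the Purkinje cell list (100), Slc1a2 of astrocytes (99.98) and Mobp of oligodendrocytes (99.71). Other markers on those lists ranked lower. Granule cell markers were higher in 7 of 8 genes (median 0.23) and Purkinje cell markers in 6 of 9 (median 0.09). Oligodendrocyte markers were lower in 8 of 10 genes (median -0.11), astrocyte and Bergmann glia markers in 7 of 11 (median -0.10), projection neuron markers in 5 of 8 (median -0.05) and endothelial and mural markers in 3 of 6 (median -0.02), while microglia markers were higher in 4 of 7 (median 0.04). Most of these cells express proteasome genes, and the part of tissue composition in the members' values was not tested. In pooled tissue, fewer cells of a type and less transcript per cell cannot be told apart.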

How the data were processed

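RNA of 1 pool per training group was read on 6 arrays of 3 designs. Each deposited value was taken for a log2 signal; base 2 follows from the range (1.40 to 12.5 without controls). How the authors summarized and normalized: not given in the sources used here. With 1 array per group and design nothing was tested, and the number of arrays limits precision. The 198 control probe sets were set aside. Symbols came from the platform annotation, and 29044 of 29131 single-symbol probe sets matched RefSeq (GRCm38.p6) by gene identifier. In each design a constant (at most 0.01) was taken from the paired array to bring the median log2 ratio of the brighter probe sets (those kept) to 0, signals under the 25th percentile were set to it, and probe sets with a mean at or above the median were kept (18351). Printed signals are after these steps. Arrays of a design correlated at 0.991 to 0.995. A gene's value is the mean over its kept probe sets. Log2 ratios of 0.322 and folds of 1.5 were counted. A letter suffix on a probe set marks probes chosen under relaxed rules, with uniqueness as only 1 of them. The members, lists, sizes and naming rule (per subfamily the largest differences and highest ranks, the catalytic and immune subunits, activators and selected E2 genes, the widest ranges, and 2 genes per pathway list) were chosen with earlier results of these data known. Psmd2, Psmd11, Psmd14, Psma8, Ube2g1, Ube2e1's second probe set and the promoters shown were picked after their values were seen. Steps were tested on simulated data. Python 3.11.15, pandas 2.3.3 and statsmodels 0.14.6 were used.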

Additional observations from a re-analysis of the deposited data

How the results depend on the processing

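No paired analysis was possible because each group had 1 array per design and nothing was tested. The count past 1.5-fold stayed at 0 under every alternative run: no, quantile and loess scaling, without floor, with it at the median, without signal filter, with it at the 75th percentile, each design alone, and no suffixed probe sets. The count past a log2 ratio of 0.322, whose alternatives were added after seeing the data, was 7 of 111. It was 2 of 77 at the 75th percentile and 4 of 82 without suffixed probe sets. By design it was 4 of 63 on A, 1 of 22 on B and 2 of 26 on C. Each of these sets is a part of the 111, so a lower count follows partly by construction. Of all kept probe sets, 8.14%, 8.999%, 9.27%, 10.9% and 9.03% passed that size under these settings, in the same order. The split at that size was 3 higher and 4 lower, but 2 and 5 without scaling, 2 and 4 with loess, 4 and 4 with quantile scaling and 4 and 4 without the signal filter. It was one-sided at the 75th percentile (2 and 0), on design A (0 and 4), on B (1 and 0) and on C (2 and 0), and 2 and 2 without suffixed probe sets. Of 70 subfamily medians under an alternative, 61 moved by less than the SD of a log2 ratio (0.20) over the root of the number of genes. The others were Psma 0.13 at the 75th percentile; Psmd 0.10 on design A, 0.26 on B (1 gene), 0.11 without suffixed probe sets and -0.093 taking each gene's brightest probe set; Psmb -0.23 on B (2 genes); Psmc 0.076 without suffixed probe sets and 0.076 with the brightest; and Ube2 0.017 without suffixed probe sets. Medians this close to 0 have no settled sign. Ube2e1 went from -0.43 to -0.06 and Ube2a from -0.38 to -0.23 without the signal filter, by construction, since a second, dimmer probe set then enters. Psma and Psme had no gene on design B, and the brightest-probe-set setting applies to genes only.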

Other observations

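Probe sets with several symbols were no members. The interferon-induced activator Psme2 shares its probe sets with the copy Psme2b. Of the 3, those above the signal filter had 6.14 and 6.28 on design A (log2 signal, unpaired first) and 4.82 and 4.75 on design C, so they went opposite ways. The probe set that reads Ube2l3, an E2 of many ligases, together with 4 gene models was among the brightest of design A (rank 97.4), with 9.26 and 9.23. A probe set shared by Ube2j2 and a gene model had 5.10 and 5.23, a log2 ratio of 0.13, on the same side as both Ube2j2 probe sets of a single symbol (0.07 and 0.10). A second probe set with the same symbols, under the filter, went the other way, with 3.46 and 3.34.

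Among pathway genes outside the named ones, Uchl5, a deubiquitinase of the proteasome cap, was higher in the paired pool on all 3 of its kept probe sets, with 6.17 and 6.20 on design A and 5.50 and 6.04 and 6.19 and 6.36 on design B. Rad23b, a shuttle factor, was lower on both of its suffixed probe sets of design A, with 7.22 and 6.75 and with 7.04 and 6.88. Both were picked after their values were seen.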
